A study of Saccharomyces cerevisiae with 16 samples.

Results

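Ribonucleotide reductase and its control were followed through 8 yeast genes: the large subunits RNR1 (YER070W) and RNR3 (YIL066C), the small subunits RNR2 (YJL026W) and RNR4 (YGR180C), the small proteins SML1 (YML058W) and HUG1 (YML058W-A), the repressor RFX1 (YLR176C, also called CRT1) and the kinase DUN1 (YDL101C). They are 8 of the 6225 genes on the array, matched by their ORF names, and all 8 were among the 6046 genes that were tested. RNR2 was chosen by its late rise on these same arrays, so its changes are given as a description with no test. The other 7 genes were named by function, with earlier results of these data known, and the question is whether they share that rise.

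The enzyme reduces ribonucleotides to deoxyribonucleotides, the building blocks of DNA, with a catalytic large subunit (Rnr1, or its damage-induced counterpart Rnr3) and a small subunit made of Rnr2 and Rnr4, of which Rnr2 carries the iron cofactor. Its activity is held down by Sml1, which binds the large subunit. When replication stalls or DNA is damaged, the checkpoint kinases Mec1 and Rad53 activate Dun1, which leads to the loss of Sml1 and relieves repression by Rfx1. Rfx1 recruits the corepressor Tup1-Cyc8 to promoters that include those of RNR2, RNR3, RNR4 and HUG1, whereas RNR1 is mainly a cell cycle gene read at the start of S phase.

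RNA came from 2 chemostat cultures, A and B, of a haploid S288C strain in which an estradiol-responsive promoter (Z3pr) replaces that of ROF1, which encodes a putative transcription factor with a WOPR domain. The cultures were limited for phosphate and were sampled before (0 min) and 5, 10, 15, 20, 30, 45 and 90 min after 1 µM β-estradiol was added, with 1 array for each culture and time (16 in all). All groups share the genotype: the activator Z3EV is expressed from the ACT1 promoter, URA3 lies beside the new promoter, and the strain lacks working HIS3, CAN1 and LYP1. Every array also carried RNA of a reference strain, DBY12001, in green (Cy3) against the culture's RNA in red (Cy5), and the dyes were never swapped. The culture is the replicate (n = 2 at each time). No culture without the ROF1 construct was followed, so β-estradiol and ROF1 cannot be told apart.

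Median red signal lay between 931 and 1417 on the 16 arrays, with 90.5% to 97.4% of spots detected in red. The 15 min array of culture B held 183 outlier spots, the other arrays 3 to 60. Each of the 8 genes had 1 probe with 2 spots, and these were well above background in both colours on all 16 arrays. ROF1 itself was induced, by 3.43 on the log2 scale at 5 min and 4.01 at 90 min (limma, adjusted p 2.94e-06), a size that depends on the floor of 50 set on the signal because ROF1 lay under it at 0 min. The arrays of a culture made up 1 slide, and a time held the same position on both slides, so culture and slide, and time and array position, cannot be told apart.

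The ratio of RNR2 to the reference stood higher at each later time from 10 min on in both cultures. RNR4, RNR1 and RNR3, the other subunits of the enzyme, were not called higher at 90 min. Of the 7 other genes, DUN1, HUG1 and SML1 were higher at 90 min than at 0 min, by 0.69, 0.58 and 0.24 on the log2 scale, and RNR1 was lower, by 0.16. These were 3 of 7 genes higher, where 20.7% of all tested genes were called higher, and 1 of 7 lower, where 20.0% were called lower (limma, adjusted p under 0.05). Of all tested genes 0.380% (23) were called and higher by at least 2-fold at 90 min, and 0 of the 7 were among them. The change of the ratio of RNR2, which chose it, was also over 2-fold. Of that change 41.3% came from the green signal of the reference, as set out below.

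RNR2 had log2 ratios of red over green of 0.13, 0.13, 0.36, 0.59, 0.97, 1.39, 1.59 and 1.99 in culture A, from 0 to 90 min. In culture B they were 0.17, 0.22, 0.49, 0.56, 0.92, 1.19, 1.71 and 1.89. From 10 min on, both cultures stood above both values of the time before. The mean change against 0 min was 0.03, 0.28, 0.43, 0.80, 1.14, 1.51 and 1.79 over the 7 later times, and that of 90 min (SD 0.10, n = 2) is 3.46-fold. The rise was therefore not confined to the end of the series: culture A passed its midpoint at 22.2 min and culture B at 23.9 min. Among the 6046 tested genes the change of RNR2 ranked 2167, 282, 89, 9, 4, 3 and 6 from the highest at these times.

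**Figure D1:**
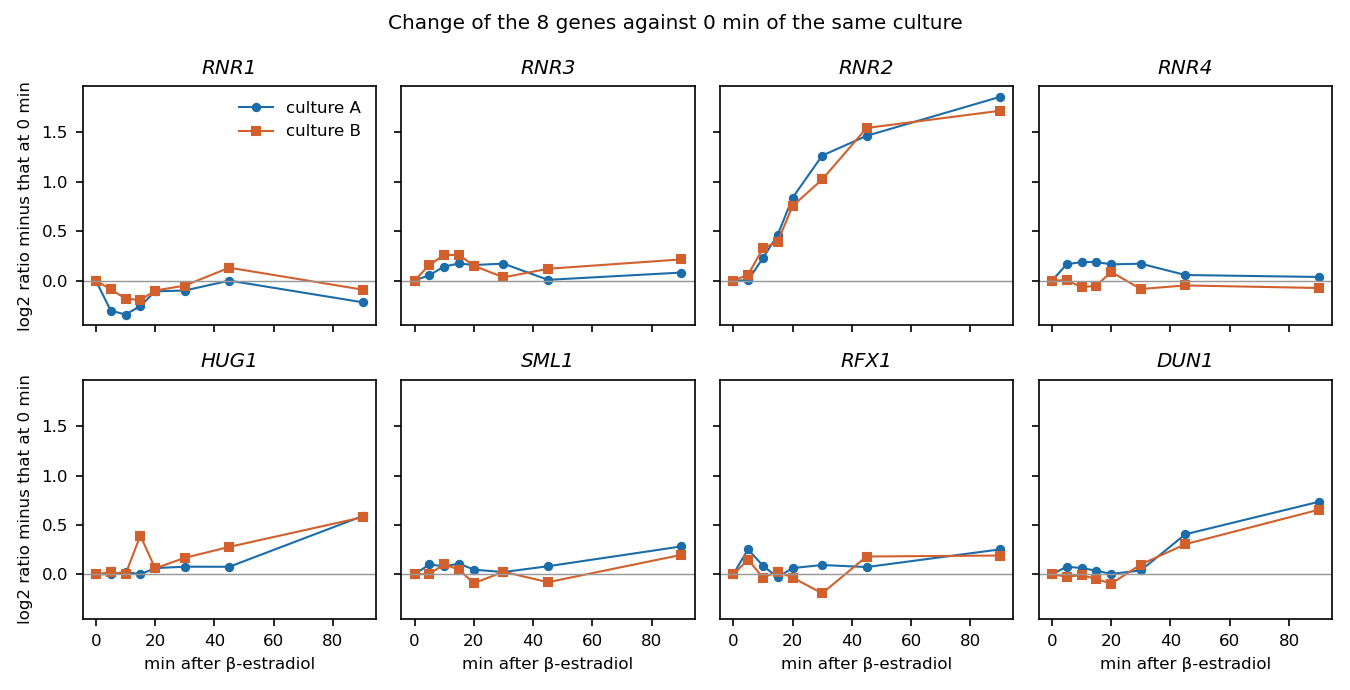
Change of the log2 ratio of each of the 8 genes from 0 min of the same culture (y axis, log2) against minutes after β-estradiol (x axis), with circles for culture A and squares for culture B, on 1 shared scale. RNR2 reached 1.86 and 1.72 at 90 min, DUN1 0.73 and 0.65 and HUG1 0.59 and 0.58, while RNR4 ended at 0.04 in A and -0.08 in B.

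The ratio of RNR2 moved in both of its parts. The red signal, from the induced cultures, was 40072, 39614, 45414, 49800, 54715, 65745, 66974 and 88254 in culture A and 40095, 40932, 33824, 39210, 57836, 61088, 89498 and 74255 in culture B. The green signal, from the same reference strain on every array, was 36657, 36204, 35501, 33044, 27952, 25015, 22182 and 22223 in culture A. In culture B it was 35739, 35031, 23965, 26649, 30581, 26778, 27315 and 20080. Red was thus highest at 90 min in A and at 45 min in B, and green at 90 min was lower than at 0 min in both.

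To set arrays beside each other, each channel was scaled to its 75th percentile. At 90 min red had then risen by 1.05 on the log2 scale and green stood at -0.74, so that green made up 41.3% of the change of the ratio. The share was 38.1% at 20 min, where red was at 0.49 and green at -0.30, 43.0% at 30 min (0.65 and -0.49) and 30.1% at 45 min (1.05 and -0.45). Before 20 min the ratio had changed by less than 0.5, and no share was taken. Red was at 0.16 and green at -0.12 at 10 min, and at 0.10 and -0.33 at 15 min. At 15 min scaled red was 0.28 in A and -0.08 in B, and scaled green -0.19 and -0.48. Green of RNR2 was the lowest of all 6046 genes at 30 min and the third lowest at 90 min, after MFA1 (-0.89) and MFA2 (-0.76), the genes of the a-factor pheromone, which were named after their values were seen. Over all tested genes the green change at 90 min had a median of 0.02, with 5th and 95th percentiles of -0.26 and 0.16. Among the 23 genes higher by 2-fold, a count that includes RNR2, 1, RNR2, had a green fall of over 0.5, and the next was HXT1 at -0.42. The source of the green fall was not tested. Scaled green of the other 7 genes at 90 min is given in the order A and B. It was 0.09 and -0.54 for RNR1, -0.05 and -0.12 for RNR3, and -0.01 and -0.31 for RNR4. For SML1 it was -0.31 and 0.24, for RFX1 0.04 and 0.37, and for DUN1 -0.07 and 0.23. HUG1 was at 0.08 and 0.07. Its green lay at or under the floor on all 16 arrays, so these values depend on the floor. By its red signal alone RNR2 ranked 18 from the highest at 90 min.

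**Figure D2:**
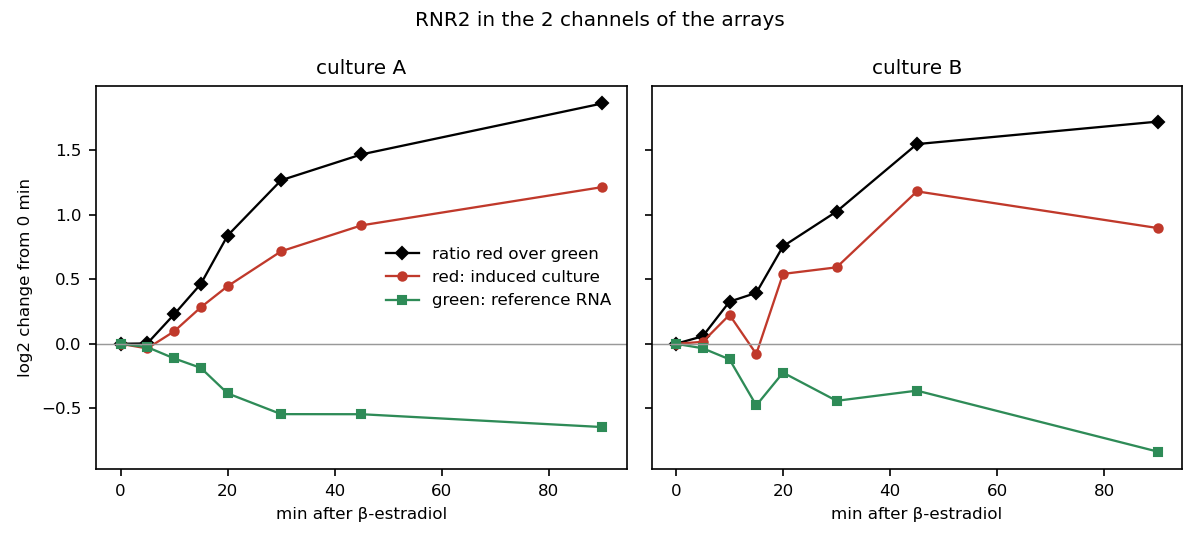
RNR2 in culture A (left) and culture B (right): log2 change from 0 min (y axis) of the ratio (black diamonds), of the red signal of the induced culture (red circles) and of the green signal of the reference RNA (green squares), each channel scaled to its array's 75th percentile, against minutes after β-estradiol (x axis). At 90 min red stood at 1.21 in A and 0.90 in B, and green at -0.64 in A and -0.83 in B.

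RNR4, whose protein pairs with Rnr2, stayed near its starting ratio. Its log2 ratios were -0.07, 0.10, 0.12, 0.12, 0.09, 0.10, -0.01 and -0.03 in culture A and 0.12, 0.12, 0.05, 0.07, 0.21, 0.03, 0.07 and 0.04 in culture B, in the order of the times. The cultures started on either side of 0, and all later values but those of culture B at 5 and 20 min lay between these starting values. The largest mean change was 0.13 ± 0.06 (SE) at 20 min (limma, adjusted p 0.236), and at 90 min it was -0.02 ± 0.06 (SE, adjusted p 0.878). No time passed the test, nor did the F test over all 7 later times (adjusted p 0.473), which 50.6% of all tested genes passed. Scaled red of RNR4 at 90 min was at 0.02 in A and -0.38 in B.

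RNR1, the main large subunit, was lower than at 0 min up to 15 min and again at 90 min. It had log2 ratios of -0.17, -0.47, -0.51, -0.43, -0.28, -0.27, -0.17 and -0.39 in culture A and -0.32, -0.41, -0.51, -0.52, -0.42, -0.38, -0.19 and -0.42 in culture B. Both cultures lay below both 0 min values at 5, 10, 15 and 90 min, with culture A starting higher. The change was -0.20 ± 0.05 (SE) at 5 min (limma, adjusted p 0.0310), -0.26 at 10 min (0.00728) and -0.23 at 15 min (0.0174). At 20, 30 and 45 min it was -0.10, -0.08 and 0.07 and passed no test (adjusted p 0.224, 0.404 and 0.482). At 90 min it was -0.16 ± 0.05 (SE, adjusted p 0.0424). This last call did not hold in red alone (-0.37, adjusted p 0.507), nor with culture left out of the fit (0.0847). The 90 min call was also lost in the absence of any of 9 arrays. The 10 min call was lost in red alone too (-0.29, limma, adjusted p 0.655), but held with culture left out of the fit (0.0170). With the starting array of A set aside, the 10 min change shrank to -0.21 and the call was lost as well. The calls at 5 and 15 min were not examined under the alternatives. Scaled green of RNR1, from the reference, also fell on some arrays of 5 to 15 min. At 5 min scaled red and green were at -0.84 and -0.53 in A, and -0.11 and -0.01 in B. At 10 min they were at -0.27 and 0.09 in A, and -0.32 and -0.15 in B. At 15 min they were at -0.15 and 0.11 in A, and -1.13 and -0.93 in B, the array with most outlier spots. The source of the loss in both colours was not tested.

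RNR3, the large subunit known for its strong induction by DNA damage, moved little. Its log2 ratios were 0.02, 0.07, 0.16, 0.19, 0.18, 0.19, 0.03 and 0.10 in culture A and -0.03, 0.13, 0.23, 0.23, 0.12, 0.01, 0.09 and 0.19 in culture B. All later values but that of culture B at 30 min lay above both values at 0 min, and the highest were 0.23. The change was 0.22 ± 0.06 (SE) at 15 min (limma, adjusted p 0.0472), the only time that passed, and 0.15 ± 0.06 at 90 min (adjusted p 0.0979). At 10 min it was 0.20, close to the threshold (limma, adjusted p 0.0513). The 10 min change passed under 6 alternatives, among them normexp with loess (0.00489) and no floor (0.0413). It did not pass under the others that were tested, such as a floor of 200 (0.0609). The F test over all times gave an adjusted p of 0.155. Its signal was steady, between 482 and 634 in red over the 16 arrays.

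At the earlier times 0 or 1 of the other 7 genes was called in each direction, with the share of all tested genes given in brackets. At 5 min 0 were higher and 1, RNR1, was lower (10.1% and 9.54% of all tested genes), and at 10 min again 0 were higher and RNR1 was lower (11.6% and 12.9%). At 15 min RNR3 was higher and RNR1 lower (9.01% and 9.84%). At 20 min 0 were called in either direction (7.96% higher and 7.56% lower), and likewise at 30 min (5.52% and 5.94%), when RNR2 had already passed its midpoint. At 45 min DUN1 was called higher and 0 genes lower (8.78% and 7.96%). Where none was called higher or lower, limma gave these genes at an unadjusted p under 0.05: RFX1 at 5 min and RNR3 at 10 and 20 min, all higher, and 0 of the 7 at 30 min.

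DUN1, the kinase that relays the checkpoint signal to Rfx1 and Sml1, rose late and alike in both cultures. Its log2 ratios were 0.04, 0.11, 0.10, 0.07, 0.04, 0.07, 0.44 and 0.77 in culture A and 0.12, 0.09, 0.11, 0.07, 0.02, 0.22, 0.42 and 0.77 in culture B. At 45 and 90 min both cultures lay above every value up to 30 min. The change was 0.07 ± 0.04 (SE) at 30 min (limma, adjusted p 0.320), 0.35 at 45 min (0.000709) and 0.69 ± 0.04 at 90 min (6.59e-06), or 1.62-fold. The midpoint was reached at 43.4 min in A and 47.9 min in B, after that of RNR2 in both cultures. Scaled red of DUN1 at 90 min was at 0.66 in A and 0.90 in B.

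HUG1, a small gene known for its induction by the checkpoint, was close to the lower limit of measurement. Its red signal at 90 min was 75 in A and 78 in B, against 44 and 43 at 0 min, which is under the floor of 50. Red lay at or under the floor on 9 of 16 arrays and green on all 16. The floored log2 ratios were 0.59 in A and 0.58 in B at 90 min, and 0 in both at 0 min by construction. At the times between they were at most 0.08 in culture A and reached 0.39 at 15 min and 0.28 at 45 min in culture B, the 15 min value being on the array with most outlier spots. The change at 90 min was 0.58 ± 0.10 (SE; limma, adjusted p 0.00197). It was 0.71 without a floor and 0 with a floor of 200. The unfloored ratio too was higher at 90 min than at 0 min in both cultures, at 1.11 and 0.73 against 0.13 and 0.29. In culture B, however, the unfloored ratio was 0.88 at 15 min, above that of 90 min, and 0.60 at 45 min.

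SML1, the inhibitor of the large subunit, was flat until 45 min. Its log2 ratios were -0.05, 0.05, 0.03, 0.06, 0.00, -0.02, 0.04 and 0.24 in culture A and -0.02, -0.01, 0.08, 0.03, -0.11, 0.01, -0.10 and 0.18 in culture B. At 90 min both cultures lay above every earlier value. The change was 0.00 at 45 min (limma, adjusted p 1) and 0.24 ± 0.05 (SE) at 90 min (0.00406), or 1.18-fold. In red alone the mean was 0.21 and did not pass (adjusted p 0.557), with -0.03 in A and 0.45 in B, so that in A the ratio rose through green. SML1 and HUG1 are neighbours on chromosome XIII in the RefSeq annotation (R64).

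RFX1, the repressor of this group, was not called at any time. Its log2 ratios were -0.30, -0.04, -0.21, -0.33, -0.23, -0.20, -0.22 and -0.04 in culture A and -0.20, -0.05, -0.23, -0.17, -0.23, -0.39, -0.02 and -0.01 in culture B. Each culture stood above its own 0 min value at 5 min and again at 45 and 90 min. The change was 0.20 ± 0.08 (SE) at 5 min (limma, adjusted p 0.139) and 0.22 ± 0.08 at 90 min (0.0620), and the F test gave 0.109. At 90 min it passed when no floor was set (0.0435), when probes had to be detected on all arrays (0.0223), and when any 1 of the arrays of 30 and 45 min was left out.

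Between 45 and 90 min DUN1 (0.34, limma, adjusted p 0.00121), HUG1 (0.41, 0.0249) and SML1 (0.24, 0.0103) rose, where 8.87% of all genes did, and RNR1 fell (-0.22, 0.0225), where 8.37% did. RNR2 gained 0.28 over the same interval. RNR1, HUG1, SML1 and DUN1 passed the F test (adjusted p 0.00781, 0.0133, 0.0207 and 2.84e-05), 4 of the 7, where 50.6% of all tested genes did.

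Before induction the strain differed from the reference strain in 2 of the 7 genes. RNR1 stood at -0.25 ± 0.05 (SE; limma, adjusted p 0.00197) and RFX1 at -0.25 ± 0.06 (0.00630), both lower, where 23.8% of all tested genes were lower and 25.9% higher. DUN1 was at 0.08 (adjusted p 0.0521), RNR4 at 0.02 (0.715), RNR3 at 0.00 (0.999) and SML1 at -0.03 (0.505), and RNR2 was at 0.15. HUG1 was at 0 by construction, with both colours under the floor, and so could not be called. A dye bias of a probe stays in these ratios because the dyes were not swapped. Only a bias that is the same on every array cancels in a change between times, and this was not tested.

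Of 9 further genes known to control RNR genes or proteins, MOT3 and DIF1 changed at 90 min, 1 lower and 1 higher, where 20.0% and 20.7% of all tested genes were. MOT3, a repressor that works with Rox1, had log2 ratios of 0.06, 0.10, 0.04, -0.05, -0.14, -0.11, -0.37 and -0.63 in culture A and 0.10, 0.11, 0.05, 0.04, -0.09, -0.21, -0.32 and -0.61 in culture B. Both cultures fell below every value of 0 to 15 min from 20 min on, and the change was -0.20 ± 0.04 (SE) at 20 min (limma, adjusted p 0.0118), -0.43 at 45 min (0.000198) and -0.70 ± 0.04 at 90 min (4.09e-06). DIF1, which brings the small subunit into the nucleus, rose late, by 0.20 at 45 min (0.0366) and 0.56 ± 0.05 (SE) at 90 min (0.000112), with 0.58 in culture A and 0.54 in culture B. Their midpoints were 40.0 and 36.4 min for MOT3 and 56.1 and 52.6 min for DIF1, in cultures A and B.

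The other 7 regulators did not pass at 90 min. TUP1 and CYC8, the corepressor that Rfx1 recruits, were at -0.09 and -0.05 (limma, adjusted p 0.442 and 0.424), and CYC8 was lower at 30 min, by 0.20 (log2 change -0.20, adjusted p 0.0226). WTM1, which anchors the small subunit in the nucleus, was higher at 10, 15 and 20 min, by 0.21, 0.26 and 0.28 (adjusted p 0.0154, 0.00781 and 0.00850), and at 0.07 at 90 min. ROX1, CRT10, IXR1 and WTM2 were at 0.00, -0.06, 0.03 and 0.05 at 90 min.

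**Figure D3:**
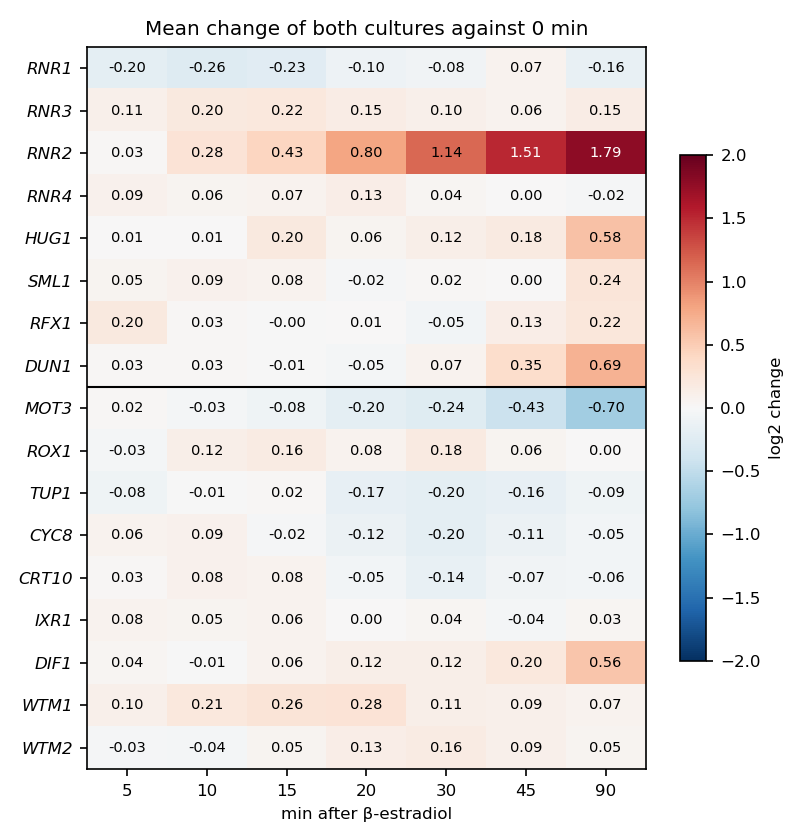
Mean log2 change of both cultures against 0 min (colour and printed value) for the 8 genes, above the line, and the 9 further regulators, below it, in rows, at the 7 later times in columns. Red is higher and blue lower than at 0 min: RNR2 darkens from 20 min on, DUN1 at 45 and 90 min, and MOT3 reaches -0.70.

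The wider pathway was described with lists of genes by function, chosen with earlier results of these data known. Their counts stand beside 20.7% of all tested genes called higher and 20.0% called lower at 90 min, and 8.78% called higher at 45 min. Of 15 S phase genes, 14 were higher at 45 min (median log2 change 0.34) and 14 at 90 min (0.51), with MCD1, a cohesin subunit, at 0.75, CLB6, an S phase cyclin, at 0.59 and RFA1, of the single-strand DNA binding complex, at 0.56 (limma, adjusted p 5.02e-05, 0.000153 and 5.27e-05). POL1 and PRI2 of the DNA polymerase alpha complex (0.51 and 0.54), POL30, the sliding clamp (0.55), CDC45 of the replicative helicase (0.56) and SMC3 of cohesin (0.55) were also higher. At 10 min 0 of the 15 were higher and 6 lower (11.6% and 12.9% of all tested genes), with a median of -0.12, beside RNR1 at -0.26. At 90 min RNR1 was at -0.16 beside these S phase genes at 0.51 in the median. All 8 histone genes were higher at 90 min, from 0.57 for HTB2 to 0.93 for HTB1, and 2 were at 45 min. The median change of all tested genes was 0 at each of the 7 times.

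Of 14 checkpoint sensors and kinases, 8 were higher at 90 min and 0 lower, with a median of 0.14, against 20.7% and 20.0% of all tested genes. MRC1, which carries the replication stress signal to Rad53, was the highest at 0.61 (limma, adjusted p 4.08e-05). Of 15 genes known to be induced by DNA damage, 7 were higher and 1 lower (20.7% and 20.0% of all tested genes), with a median of 0.17 and PLM2, a factor of the damage response, highest at 0.60 (0.000110). RNR3, itself a classic gene of this kind, was at 0.15. Of 15 genes of nucleotide and reductant supply, 3 were higher and 1, URA7, a CTP synthase, was lower at -0.61 (2.58e-05), with a median of 0.03, a share of higher genes near the 20.7% of all tested genes. In cofactor assembly 1 of 4 genes was higher, also near that share.

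Hypoxic genes, which Rox1 and Mot3 repress in aerobic cells, went both ways: of 8, 2 were higher and 3 lower at 90 min (20.7% and 20.0% of all tested genes), with a median of 0.05. CYC7, a cytochrome c, was at 1.08 (limma, adjusted p 1.28e-06), and HEM13, of heme synthesis, and ANB1, a translation factor, were at -1.44 and -0.78 (1.17e-07 and 0.000226).

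**Figure D4:**
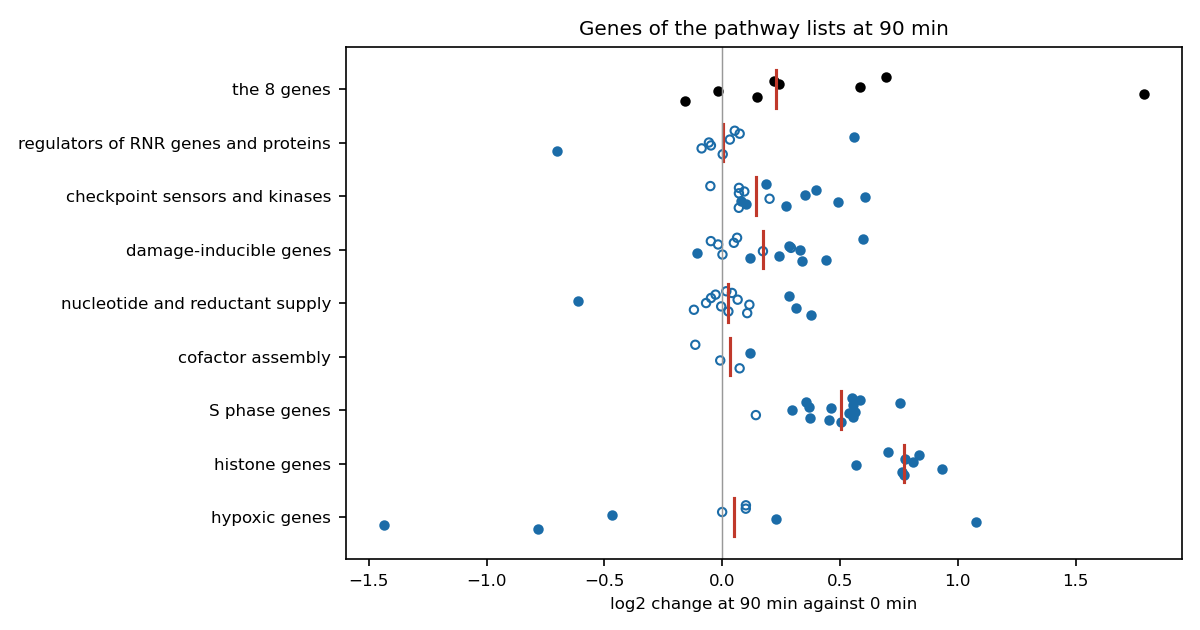
Log2 change at 90 min against 0 min (x axis) of the 8 genes (top row, black) and of the genes of the 8 lists (blue, filled where adjusted p was under 0.05 over all tested genes, open otherwise); each point is 1 gene, and red bars mark medians. The S phase and histone rows lie to the right of 0 in full, with medians of 0.51 and 0.77, and RNR2 stands farthest right at 1.79.

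Across the 16 arrays, with each culture centred on its own mean, the pattern of RNR2 was most like those of GIT1 (Pearson r 0.98), which encodes a transporter of glycerophosphodiesters, YOR343C (0.98) and HST3 (0.98), a histone deacetylase. Next came TOS7, YNL058C, ELO1, a fatty acid elongase, YHR033W, CLB5, an S phase cyclin, RBH1 and YLR112W, all at 0.96 or 0.97, among 5500 genes with red above the floor on every array. These arrays share the cultures and the time course, so any gene that moves one way over time scores highly. At 90 min YOR343C was at 1.71, ELO1 at 1.03, GIT1 at 0.83 and HST3 at 0.48.

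Among the 8 genes RNR2 was most like DUN1 (r 0.80) and HUG1 (0.73), and r was -0.32 with RNR4 and 0.34 with RNR1, over the same 16 arrays. DUN1 and HUG1 had r 0.83. All r values of HUG1 depend on the floor, because its green lay at or under it on all 16 arrays and its red on 9. With the regulators, r of RNR2 was -0.95 for MOT3 and 0.84 for DIF1, the 2 farthest from 0. The others lay between -0.61 (CYC8) and 0.59 (WTM2), with ROX1 at 0.10 and WTM1 at -0.08. DUN1 was most like HSL1 (0.99), a kinase of the morphogenesis checkpoint, TEL2 (0.98) and YFR006W (0.98). HUG1 was most like YCR023C, YER010C and YER188W (0.94 to 0.93), and SML1 like CHM7, the histone variant HTZ1 and KIP3, a kinesin (0.92 to 0.91). RNR1 was most like MAE1, EMW1 and IPI3 (0.90 to 0.85), RNR3 like ALD4, AMA1 and PGI1 (0.86 each), RNR4 like ADE16, IDP1 and CUE5 (0.90 each) and RFX1 like YDR338C, IME1 and FPT1 (0.86 to 0.83).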

How the data were processed

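RNA of 2 chemostat cultures at 8 times was hybridised on 16 2-colour Agilent arrays. The authors scanned them and extracted spots with Feature Extraction (12.0.1.1 per the file headers), and the deposited processed intensity had its background removed and the dyes balanced on each array. A further deposited table gives the authors' log2 ratio of red to green, both floored at 50, which 0 of 12512 spots per array contradicted by over 0.0001 when recomputed.

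Here outlier spots were left out, the log2 ratios of the floored intensities were averaged over the 2 spots of a probe, and genes with several probes (29) took the brightest. Of 6225 genes, 6046 were tested, those with red well above background on at least 2 arrays, and 5720 matched a RefSeq name. The test was that of limma 3.58.1 under R 4.3.3 (functions lmFit and eBayes, time as a factor, culture as a block, 7 residual degrees of freedom, prior degrees of freedom 0.89), p-values being adjusted by Benjamini-Hochberg over all tested genes of a contrast, with 0.05 as the threshold. Ratios at 0 min were tested in a fit without the block. The script was tested on simulated data. Python 3.11.15, pandas 2.3.3 and matplotlib 3.10.9 were used. The number of arrays limits the precision.

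The numbers A and B pair the samples because they name the culture followed over time. Deviations from the time means correlated between arrays of one culture at a median of 0.15 (28 pairs, -0.05 to 0.40, 18 of them over 0.1).

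The 8 genes and the lists were chosen with earlier results of these data known. Named genes are the 8, ROF1, the 9 further regulators, genes of other lists past the threshold that moved by 0.5 or more at 90 min, the 10 genes most correlated with RNR2 and 3 for each other gene. Histone genes that this rule admits are counted in their list, and MFA1, MFA2 and HXT1 were named after their values were seen. Alternatives were normexp (offset 50) with loess, a floor of 200 or none, the authors' own log2 ratios, no filter or a stricter one on dim probes, a trend in the prior variance, arrays centred on their median, no culture block, red alone, the mean over probes, each array or culture left out and, chosen after seeing the data, the green channel alone. Promoter and protein sequences were not analysed here.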

Additional observations from a re-analysis of the deposited data

How the results depend on the processing

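The number of the 7 genes other than RNR2 called higher at 90 min was 3 and ranged from 3 to 5 with 1 array left out; it was 5, with RNR3 (adjusted p 0.0194) and RFX1 added, when either 30 min array was left out, 4, with RFX1 added, without either 45 min array, without a floor and with the strict filter, and 2 with a floor of 200, which leaves HUG1 at 0, and with the red channel alone, which loses SML1. The number called lower was 1, RNR1, and ranged from 0 to 1 with 1 array left out; it was 0 with the red channel alone and 0 without the replicate block, where RNR1 had an adjusted p of 0.0847. The 9 arrays without which RNR1 was not called were those of 15, 30, 45 and 90 min of both cultures and that of 0 min of culture A. DUN1 at 90 min lay between 0.63 and 0.78 under every alternative but the green channel alone, which holds the reference RNA (0.08), and kept its call wherever it was tested. RNR2 at 90 min was 1.05 with the red channel alone and between 1.72 and 1.86 with an array or a culture left out. With the green channel set aside, 23 of 696 values of single genes had the opposite sign to the reported change, 0 of them for a change that had passed the test or for RNR2. With an array or a culture left out, the change at 10 min ran from -0.069 to 0.19 for RNR4, -0.049 to 0.073 for HUG1, -0.033 to 0.086 for RFX1 and -0.0092 to 0.063 for DUN1. At 30 min it ran from -0.0065 to 0.21 for RNR3, -0.085 to 0.17 for RNR4, -0.015 to 0.063 for SML1 and -0.19 to 0.093 for RFX1, and at 90 min from -0.11 to 0.067 for RNR4. With the red channel alone, SML1 and DUN1 were each at -0.016 at 30 min, and RNR1 lost its 10 min call (-0.29, limma, adjusted p 0.655). The causes were not tested. A fit of 1 culture alone leaves no residual degrees of freedom, so it gave values with no test and no counts. Alternatives were run for the 8 genes at 10, 30 and 90 min only.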
